A study of Mus musculus with 2 samples.

Results

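Olfactory and vomeronasal receptor genes lie in long clusters that hold fewer other genes per Mb than the rest of the autosomes. Open chromatin in these clusters was examined in mouse embryonic stem cells (ESCs), a cell type that does not sense odours. A peak of open chromatin was taken as a receptor peak when its centre lay in, or within 20 kb of, an autosomal gene of the GENCODE vM1 annotation whose name begins with Olfr, Vmn1r, Vmn2r or Taar. By this rule 630 of the 71914 peaks of the WT library and 659 of the 61640 peaks of the Uhrf1 KO library were receptor peaks, or 1289 of 133554 in both lists together. The rule uses positions only and no measured level.

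The peaks come from ATAC-seq, an assay in which adapters are cut into accessible DNA by a transposase, so that reads pile up where nucleosomes are missing. The WT library was made from undifferentiated E14 mouse ESCs and the Uhrf1 KO library from undifferentiated E14 ESCs that lack Uhrf1, a protein that binds hemimethylated DNA and brings the maintenance DNA methyltransferase Dnmt1 to it. Cells of both genotypes were grown with serum and leukemia inhibitory factor on gelatin or on feeder fibroblasts, and 50000 cells were lysed for each library. There was 1 library per genotype, and the KO cells were a single line, so each value below compares 2 libraries and not the genotypes, and none has a replicate error. The intervals given are 95% exact Poisson intervals for peak numbers and densities, exact binomial intervals for shares and exact conditional intervals for ratios. They reflect counting error alone, and peaks that lie side by side are not independent of each other. The lists hold positions, names and a score, which was 1 for every peak, so the number of fragments behind a peak is unknown. Every peak was 101 bp wide except 1 KO peak of 86 bp.

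Each olfactory neuron is known to express a single allele of a single Olfr or Taar gene, while the other receptor genes are held in heterochromatin marked by H3K9me3. Olfr genes and most Taar genes encode receptors for volatile odorants in the main olfactory epithelium. Vmn1r and Vmn2r genes encode pheromone receptors of the vomeronasal organ, where Vmn1r proteins couple to Gnai2 and Vmn2r proteins to Gnao1.

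The cell type was checked with peaks within 2 kb of a transcription start site (TSS). All 8 ESC markers examined (Pou5f1, Sox2, Nanog, Zfp42, Esrrb, Klf4, Tdgf1 and Dppa5a) had such a peak in both libraries, with 37 peaks in WT and 30 in Uhrf1 KO. Of 8 fibroblast markers, 5 had a peak in WT and 4 in Uhrf1 KO, with 16 and 12 peaks, 8 and 6 of them at Twist1, and Twist2, Postn and Lum had none in either library. Of 8 olfactory neuron markers, 5 had a peak in WT and 4 in Uhrf1 KO, with 15 and 7 peaks. The olfactory marker protein gene Omp, the channel subunit gene Cnga4 and Stoml3 had none in either library. Over all protein-coding genes outside the receptor families, 68.7% had such a peak in WT and 63.4% in Uhrf1 KO, shares that the fibroblast and neuron markers did not exceed. The part of feeder cells in the lists was not tested. The targeted gene, Uhrf1, had 2 WT and 3 KO peaks within 2 kb of a TSS, so its promoter peaks do not check the genotype labels.

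The 1694 autosomal receptor genes of the annotation, of 37310 genes in all, comprised 1243 Olfr, 256 Vmn1r, 179 Vmn2r and 16 Taar genes. Of these, 1448 were annotated as protein-coding, 238 as pseudogenes and 8 as processed transcripts. With 20 kb on either side they covered 44.8 Mb in 396 blocks, 1.87% of the sequenced autosomes, which is called receptor territory here. The territory had a GC content of 38.9%, against 42.0% in the other autosomal sequence. It held 2.45 protein-coding genes of other families per Mb, against 8.46 outside it, and 8.05 genes of any type outside the receptor families, against 13.9.

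Receptor territory held fewer peaks per Mb than the rest of the autosomes in both libraries. The density was 14.0 peaks per Mb in WT (interval 13.0 to 15.2), against 29.2 outside the territory, a ratio of 0.481 (0.444 to 0.520). In Uhrf1 KO it was 14.7 peaks per Mb (13.6 to 15.9), against 24.9 outside, a ratio of 0.591 (0.547 to 0.638). Without peaks near a TSS of another gene the WT ratio was 0.834 (0.763 to 0.911) and the KO ratio 0.967 (0.888 to 1.05), an interval that included 1. The intervals of the 2 densities in the territory overlapped, while outside it the KO list was the shorter one. The KO to WT ratio of peak numbers was 1.05 (0.936 to 1.17) for receptor peaks and 0.851 (0.842 to 0.860) for the other autosomal peaks. Among the 50% of peaks with lower numbers in their names the receptor ratio was 1.24 (1.06 to 1.46), against 0.850 (0.837 to 0.863) for other autosomal peaks.

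The gap in density lay mostly near the TSSs of other genes. Within 2 kb of such a TSS the territory held 2.83 WT peaks per Mb, against 15.8 outside it, and 2.32 KO peaks per Mb, against 12.1. More than 2 kb from every TSS it held 10.3 WT peaks per Mb (9.36 to 11.3), against 13.4, a ratio of 0.765 (0.697 to 0.838). For the KO list the distal densities were 11.4 (10.4 to 12.4) and 12.8 peaks per Mb, a ratio of 0.889 (0.813 to 0.969). Distal peaks made up 461 of the WT receptor peaks (73.2%) and 510 of the KO receptor peaks (77.4%), against 46.0% and 51.4% of the other autosomal peaks. By position in genes, 486 WT receptor peaks (77.1%) and 521 KO receptor peaks (79.1%) were intergenic. Introns of receptor genes held 38 WT and 46 KO peaks, and their exons 13 WT and 7 KO peaks.

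Density was low in the receptor genes and up to 5 kb from them, with overlapping intervals, and higher farther away. In gene bodies, introns included, it was 8.28 peaks per Mb in WT (6.18 to 10.9) and 8.75 in Uhrf1 KO (6.59 to 11.4). Up to 5 kb from a gene it was 9.06 (7.64 to 10.7) and 10.6 (9.09 to 12.4). Between 5 and 10 kb it reached 16.3 (14.0 to 18.8) and 16.4 (14.1 to 19.0), and between 10 and 20 kb 21.9 (19.3 to 24.8) and 21.8 (19.2 to 24.7). Both libraries thus had the low values within 5 kb of receptor genes and the high ones beyond. These densities count all receptor peaks, those near a TSS of another gene included. They were not split by GC content, and the part of either in the rise was not tested.

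The densities were also set beside those of other sequence with the same base composition, in tiles of 10 kb. In tiles with a GC content below 37% the territory held 5.79 WT peaks per Mb (4.48 to 7.37) and 6.14 KO peaks per Mb (4.79 to 7.76), against 5.25 and 6.25 outside it. From 37% to 40% it held 9.98 (8.64 to 11.5) and 11.8 (10.3 to 13.4), against 9.98 and 11.3. From 40% to 43% it held 18.2 (15.7 to 21.0) and 19.0 (16.5 to 21.9), against 19.3 and 18.4. In tiles of 43% or more it held 49.9 (42.7 to 57.9) and 46.1 (39.2 to 53.8), against 56.2 and 44.1. In each of these classes the value outside the territory lay within the territory's interval, for both libraries. For distal peaks this held below 40% in both libraries, with 4.74 against 4.80 and 8.51 against 8.11 peaks per Mb in WT and 4.56 against 5.86 and 10.6 against 9.58 in Uhrf1 KO. In the class of 40% to 43% the territory held more distal peaks than other sequence in both libraries, 14.5 (12.3 to 17.0) against 11.1 in WT and 16.1 (13.8 to 18.7) against 11.5 in Uhrf1 KO. At 43% or more it held 24.5 (19.6 to 30.3) against 21.2 in WT and 23.6 (18.8 to 29.3) against 17.9 in Uhrf1 KO. Tiles of this kind differ in genes and repeats too, and their part in the densities was not tested.

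Receptor peaks were compared between the lists by position, and a peak had a partner when a peak of the other list lay within 100 bp. Of the WT receptor peaks, 198 had no KO partner (31.4%, 27.8% to 35.2%), near the 32.2% of all autosomal WT peaks. With 1 shared bp the WT share was 34.0% (30.3% to 37.8%), against 38.2% of other autosomal peaks. With 50% of both peaks overlapping it was 38.9% (35.1% to 42.8%), against 50.5%, so it lay lower under these 2 rules. Of the KO receptor peaks, 222 had no WT partner within 100 bp (33.7%, 30.1% to 37.4%), above the 24.4% of all autosomal KO peaks. With 1 shared bp the KO share was 36.4% (32.7% to 40.2%), against 29.2% of other autosomal peaks. With 50% of both peaks overlapping, the KO shares were 41.7% (37.9% to 45.6%) and 42.3% of other autosomal peaks. The last interval included the share of other peaks. The excess was thus seen with 100 bp and with 1 shared bp, and not with 50% overlap. The shares below are for 100 bp. Among distal KO peaks the share was 38.6% for receptor peaks (197 of 510, 34.4% to 43%) and 38.0% for the other autosomal peaks. Among KO peaks within 2 kb of the TSS of another gene it was 9.62% (10 of 104, 4.71% to 17.0%) and 9.69%. In these 2 classes the KO receptor peaks thus had a share near that of other KO peaks. Among the 45 KO peaks near a receptor TSS only, a class without other peaks to compare, the share was 33.3% (20% to 49.0%). Distal WT receptor peaks lacked a partner less often than other distal WT peaks, at 31.7% (146 of 461, 27.4% to 36.1%) against 39.4%. For WT peaks within 2 kb of the TSS of another gene it was 29.9% (38 of 127, 22.1% to 38.7%) against 26.1%. Where receptor peaks were shared, their centres lay a median of 6 bp apart, against 20 bp for other shared autosomal peaks.

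The KO to WT ratio of distal receptor peaks was 1.11 (0.973 to 1.26), against 0.952 for other distal peaks and 1.04 (1.01 to 1.07) for peaks outside the territory that lay over 50 kb from every TSS. In both groups of peaks the ratio fell with GC content, taken over the central 200 bp. Below 45% there were 121 WT and 194 KO receptor peaks, a ratio of 1.60 (1.27 to 2.03), against 1.64 for other autosomal peaks. From 45% to 55% there were 283 and 307, a ratio of 1.08 (0.920 to 1.28), against 1.03. At 55% or more there were 226 and 158, a ratio of 0.699 (0.567 to 0.860), against 0.714. The ratio of receptor peaks in each GC class was therefore close to that of other peaks of the same class. The median GC content was 51.5% for WT receptor peaks and 49.0% for KO receptor peaks, against 60.0% and 57.0% for the other peaks, so both lists of receptor peaks lay lower in GC than their libraries. KO receptor peaks without a WT partner had the lowest median, 46.0% (quartiles 39.6% and 50%), against 51.0% for shared ones. For other autosomal KO peaks the medians were 49.5% without a partner and 60.0% for shared ones. WT receptor peaks without a KO partner had a median of 52.5% (47.0% and 60.0%), against 51.0% for shared ones. Other autosomal WT peaks had 58.0% and 61.0% in the same order. The observed to expected ratio of CpG dinucleotides had a median of 0.341 in WT and 0.267 in Uhrf1 KO receptor peaks, against 0.549 and 0.455 in the others. Among distal peaks the medians were closer, 0.263 against 0.270 in WT and 0.196 against 0.229 in Uhrf1 KO. With 1 library per genotype, a difference in library preparation and a difference in genotype cannot be told apart in these values.

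The Olfr genes gave most of the peaks, 414 in WT and 412 in Uhrf1 KO, or 15.0 (13.6 to 16.5) and 14.9 (13.5 to 16.5) per Mb of their own territory. Vmn1r genes had 97 WT and 106 KO peaks, or 12.3 (10.00 to 15.0) and 13.5 (11.0 to 16.3) per Mb. Vmn2r genes had 116 and 137, or 12.5 (10.4 to 15.0) and 14.8 (12.4 to 17.5) per Mb. The 16 Taar genes, which form a single cluster on chromosome 10, had 3 and 4 peaks. The KO to WT ratio was 0.995 for Olfr (0.866 to 1.14), 1.09 for Vmn1r (0.822 to 1.45) and 1.18 for Vmn2r genes (0.916 to 1.53), and these intervals overlapped. The share of KO peaks without a WT partner was 33.0%, 35.8% and 34.3% in the same order, again with overlapping intervals. Beside these stand 24.4% of all autosomal KO peaks and 38.0% of other distal KO peaks. For WT peaks without a KO partner the shares were 32.4%, 35.1% and 25.9%, beside 32.2% of all autosomal WT peaks.

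Chained at gaps of up to 500 kb, the receptor genes formed 81 clusters, of which 35 had 10 or more genes and together held 1547 genes. Each of these 35 clusters had at least 1 peak, and the 14 clusters without any peak held only 18 genes. Among the 35 clusters the density ran from 3.80 to 36.2 peaks per Mb in WT, with a median of 12.1, and from 3.23 to 29.5 in Uhrf1 KO, with a median of 14.0. KO peaks were more numerous than WT peaks in 21 of the clusters, fewer in 12 and equal in 2.

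The cluster with most genes, 268 Olfr genes on chromosome 2 from Olfr987 to Olfr1274-ps (chr2:85171054-90241831), also had most peaks of both lists together. It held 37 WT and 31 KO peaks, a density of 7.65 and 6.41 per Mb, which is below the median of the large clusters in both libraries. The next by number of genes was the chromosome 7 cluster from Olfr543 to Olfr692 (chr7:109625287-112517869), with 145 genes, 28 WT and 37 KO peaks. The 97 genes from Olfr151 to Olfr986 on chromosome 9 had 23 and 27 peaks, and the 67 genes from Olfr1417 to Olfr1505 on chromosome 19 had 27 and 24. The largest vomeronasal cluster, 79 Vmn1r genes from Vmn1r91 to Vmn1r183 (chr7:20686507-24840710), was sparse, with 13 and 14 peaks, or 5.36 and 5.77 per Mb. All 27 of them were distal.

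The other clusters with most peaks had fewer genes than those named above and held peaks at higher density. The 62 genes from Olfr9 to Vmn2r87 on chromosome 10 had 31 WT and 24 KO peaks, the 60 genes from Olfr90 to Olfr136 beside the major histocompatibility complex on chromosome 17 had 28 and 27, and the 32 genes from Olfr722 to Vmn2r89 on chromosome 14 had 26 and 28. Their densities were 22.3, 23.3 and 27.4 WT peaks per Mb. Most of these peaks were distal too, with 26, 19 and 21 in the WT list. None of the KO to WT ratios of the clusters named here had an interval that left out 1. The highest ratio among them was that of the chromosome 7 cluster from Olfr543, at 1.32 (0.787 to 2.24).

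The annotated TSSs of the receptor genes themselves rarely had a peak within 2 kb. In WT, 35 of 1694 receptor genes (2.07%, 1.44% to 2.86%) had a peak at most 2 kb from a TSS, and in Uhrf1 KO 37 had one (2.18%, 1.54% to 3.00%). Of the protein-coding genes outside the receptor families, 68.7% had such a peak in WT and 63.4% in Uhrf1 KO. The receptor genes were the same in part, with 24 in both lists, 11 in the WT list only and 13 in the KO list only. Of the protein-coding genes outside the receptor families with a promoter peak in either list, 10.1% had it in the WT list only and 2.52% in the KO list only. Genes were not compared at equal numbers of promoter peaks. By family, 25 Olfr, 5 Vmn1r and 5 Vmn2r genes had such a peak in WT, and 23, 5 and 9 in Uhrf1 KO. No Taar gene had one in either library, which with 16 genes allows a share of up to 20.6%. Within 1 kb of a TSS the numbers fell to 21 genes in WT and 15 in Uhrf1 KO. The receptor genes included 238 pseudogenes and 8 processed transcripts, while the genes set beside them were all protein-coding. Promoter here stands for the 2 kb around an annotated TSS, and whether receptor genes start there was not tested.

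The peak names carry a number that counts within each chromosome and whose meaning is not given in the sources used here. Its rank in percent of the chromosome's peaks, called the relative number, served to order peaks and genes and to compare the order of the lists. By this order the first receptor gene was Vmn2r69, with 2 peaks in each library. Its WT peak of relative number 0.536% lay 902 bp from the TSS and had a KO peak at chr7:92565034-92565134, shifted by a few bases. Vmn1r58, Olfr269-ps1, Olfr1286 and Vmn2r91 followed, each with 1 peak in each library, at 1828, 1351, 67 and 1084 bp from a TSS in the KO list. Closest to their TSSs were the peaks of Vmn1r90 and of Olfr658, the latter 23 bp away in WT.

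Vmn1r90 had the most promoter peaks of any receptor gene, 5 in WT and 3 in Uhrf1 KO, all within 1 kb of a TSS. Olfr658 had 2 WT and 3 KO promoter peaks with 57.5% to 61.5% GC, all in an exon. The pseudogene Vmn2r-ps19 also had 2 and 3, with 70.5% to 74.5% GC, in an intron of the long noncoding RNA gene Gm16889.

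Among the first 30 genes in this order, the others with a promoter peak in both lists were Vmn1r227, Olfr631, Olfr1127-ps1, Olfr503, Olfr857, Vmn1r51, Olfr1069-ps1, Olfr1373, Olfr95, Olfr373, Olfr483, Vmn2r67 and Olfr486. Of the same 30 genes, those with peaks only in the KO list were Vmn1r46, Vmn2r77, Olfr441, Olfr145 and Olfr972, at 501 to 1795 bp from the TSS and with a GC content of 41.0% to 51.0%. Those with peaks only in the WT list were Olfr1368, Olfr94, Vmn1r-ps57 and Olfr913, with a GC content of 39.0% to 74.0%. Olfr94 and Olfr95 are neighbours on chromosome 17, and each had 2 WT peaks in an exon, of which only 1, at Olfr95, had a KO partner. The peak at Olfr1127-ps1 lay 92 bp from the TSS of another pseudogene, Gm13736, and 1685 bp from that of the receptor pseudogene.

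Sequences of 2 promoter peaks shared by both libraries are shown as examples, with and without CpGs. They are given from the plus strand of mm9 (NCBIM37), 5′ to 3′, with CpG dinucleotides in capitals. The Vmn2r69 peak (chr7:92565038-92565138) is intergenic and had 5 CpGs in 101 bp, and the Vmn2r91 peak (chr17:18223064-18223164) lies in an intron, is a run of pyrimidine-rich repeats and had 0.
Vmn2r69: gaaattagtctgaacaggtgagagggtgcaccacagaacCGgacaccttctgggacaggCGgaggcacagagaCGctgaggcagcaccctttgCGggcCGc
Vmn2r91: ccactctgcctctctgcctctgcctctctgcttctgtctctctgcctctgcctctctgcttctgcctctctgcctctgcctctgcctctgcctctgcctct

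Over all receptor peaks, several of the lowest relative numbers were found in the same places in both libraries. In WT the first was at chr6:43081417-43081517, 14770 bp from Olfr441, with a relative number of 0.108%, and the KO list had it at the identical position with 0.296%. The second was at chr10:128793699-128793799, 5184 bp from Olfr782, also at the identical position in both lists, with 0.256% in WT and 0.283% in Uhrf1 KO. A peak 8272 bp from Olfr504 in WT lay 2 bp from its KO partner. In the same range were peaks in an intron of Vmn2r20, with 0.271% and 0.266%, and, in the WT list, in an intron of Vmn2r55. The others among the first 10 in WT were near Vmn2r69, Olfr1350, Vmn2r53, and the promoters of Trim68 and Mad2l1. In the KO list the first was 9518 bp from Vmn2r58, at 0.201%, and others were near Olfr1385, Vmn1r83 and Olfr497. All of these peaks had a partner in the other list. In WT the central 31 bp occurred at 2 genomic places for peaks by Olfr782, Vmn2r20 and Olfr1350 and at 3 for Vmn2r55 and Vmn2r53. Near Olfr504 it occurred at 276 places in WT and 1 in the KO list. The KO peaks near Vmn2r58, Olfr1385, Vmn1r83 and Olfr497 had 5, 6, 2 and 4. The WT peaks by Olfr441, Vmn2r69, Trim68 and Mad2l1 had 1. Where there are several, which copy was open cannot be told apart. The first 2 WT peaks are shown because they lay at the same bases in both libraries. They are given from the plus strand of mm9 with CpGs in capitals.
distal peak by Olfr441: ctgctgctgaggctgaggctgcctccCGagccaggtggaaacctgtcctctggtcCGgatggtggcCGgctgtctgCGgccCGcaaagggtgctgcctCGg
distal peak by Olfr782: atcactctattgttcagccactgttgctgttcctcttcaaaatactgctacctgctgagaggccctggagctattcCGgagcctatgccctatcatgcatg

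The order within the lists also differed between the libraries with GC content. Of the 432 WT receptor peaks with a KO partner, 254 (58.8%) had a lower relative number in the KO list, against 44.6% of other shared autosomal peaks. Below 45% GC the share was 85.1% of 87 receptor peaks, against 77.1% of other peaks, and at 55% GC or more it was 33.8% of 148, against 35.7%. Whether the number reflects the strength of a peak is not known.

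Repeated sequence was common among receptor peaks. The central 31 bp of a peak occurred at 2 or more places in the genome in 165 WT (26.2%) and 188 KO receptor peaks (28.5%), against 7.58% and 10.2% of other autosomal peaks. Among distal peaks the shares were 30.4% and 31.8%, against 13.5% and 17.3%. The KO to WT ratio was 1.14 (0.919 to 1.41) for receptor peaks of this kind, against 1.15 for others, and 1.01 (0.889 to 1.15) for receptor peaks with a single copy, against 0.827. Reads were reported at a single position each, so a read from identical copies stands at only 1 of them, and which copy was open cannot be told apart. More than 100 copies were counted for 15 shared and 6 unshared WT receptor peaks and for 11 shared and 14 unshared KO receptor peaks. The highest number was 128985, in a KO peak without a partner at chr7:110522037-110522137, 5094 bp from Olfr602-ps1. The peak at the Olfr1286 promoter, which was in both lists, had 13835 copies of its WT centre, most of it a simple repeat.

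The WT peak with most copies, 23751, lay 12255 bp from Vmn2r88 and was shared with the KO list. Its longest run of bases in common with the peak at Olfr269-ps1 was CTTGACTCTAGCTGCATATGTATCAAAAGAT, a comparison chosen after the sequences were seen. This run of 31 bases was found on either strand in the central 200 bp of 6 of 630 WT receptor peaks (0.952%), the 2 that defined it included, and of 65 of 68658 other autosomal peaks (0.0947%). In the KO list it was in 9 of 659 receptor peaks (1.37%), again with the peaks near both genes included, and in 85 of 58422 others (0.145%). Since the run was chosen in receptor peaks, these shares are a description. All 6 WT peaks, near Olfr430, Vmn2r88, Vmn2r109, Olfr269-ps1, Olfr715 and Olfr849, had a KO partner, and 3 of the 9 KO peaks had no WT partner. Among the other autosomal peaks with the run, 11 of 65 in WT and 30 of 85 in Uhrf1 KO had no partner. The KO list added peaks near Vmn2r105, Vmn2r115 and Vmn2r-ps45. Since each copy shares its sequence with others, these peaks are not independent of each other. The 3 WT peaks that hold the whole run are given with the run in capitals, from the plus strand of mm9, at chr14:52018371-52018471, chr17:20662145-20662245 and chr4:43779233-43779333.
peak by Vmn2r88: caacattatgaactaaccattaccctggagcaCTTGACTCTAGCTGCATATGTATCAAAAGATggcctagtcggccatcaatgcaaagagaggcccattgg
peak by Vmn2r109: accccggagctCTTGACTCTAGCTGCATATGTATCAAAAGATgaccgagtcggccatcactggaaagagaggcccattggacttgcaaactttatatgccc
peak by Olfr269-ps1: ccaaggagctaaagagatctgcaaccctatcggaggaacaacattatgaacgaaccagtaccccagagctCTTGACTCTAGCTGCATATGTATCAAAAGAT

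Short motifs were counted on both strands of the central 200 bp. The homeodomain core TAATTA, bound by Lhx2 among others, was in 29 WT (4.60%, 3.10% to 6.54%) and 33 KO receptor peaks (5.01%, 3.47% to 6.96%), against 1.84% and 2.45% of other autosomal peaks. Among distal peaks the shares were 5.42% and 5.69%, against 3.10% and 3.81%. The Esrrb motif TCAAGGTCA was in 9 WT (1.43%, 0.655% to 2.69%) and 7 KO receptor peaks (1.06%, 0.428% to 2.18%), against 0.288% and 0.322%. Among distal peaks it was in 1.74% (0.752% to 3.39%), against 0.431%, in WT. In distal KO peaks it was in 1.18% (0.433% to 2.54%), against 0.433%, a share at the lower limit of the interval. The octamer ATGCAAAT of Oct4 was in 2.86% (1.70% to 4.48%) and 3.19% (1.98% to 4.83%), against 1.56% and 1.93%, and among distal peaks in 2.60% and 3.33%, against 2.39% and 2.75%. The Sox motif CATTGT was in 9.05% and 9.86%, against 6.88% and 8.59%. Among distal peaks it was in 10.2% (7.59% to 13.3%) and 10.4% (7.88% to 13.4%), against 10.3% and 12.6%. For the last 2 motifs the intervals of distal receptor peaks included the shares of other distal peaks.

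The Klf and CTCF motifs had lower shares in receptor peaks than in other peaks. The Klf motif GGGNGTGG was in 11.0% of WT (8.62% to 13.7%) and 11.8% of KO receptor peaks (9.47% to 14.6%), against 16.0% and 16.1% of other peaks. Among distal peaks it was in 10.4% (7.78% to 13.6%), against 14.2%, in WT and in 11.4% (8.75% to 14.5%), against 13.5%, in Uhrf1 KO, where the interval included the share of other peaks. The core motif of the insulator protein CTCF was in 14 WT (2.22%, 1.22% to 3.70%) and 9 KO receptor peaks (1.37%, 0.626% to 2.58%), against 3.93% and 2.97%. Among distal peaks the CTCF shares were 2.39% and 1.18%, against 6.64% and 4.42%. The palindrome TCCCNNGGGA, bound by Ebf proteins, was in 2 WT receptor peaks (0.317%, 0.0385% to 1.14%) and in 0 KO receptor peaks (upper limit 0.558%), against 0.655% and 0.638%. A match shows only that these letters were in the window. The shares of all motifs counted were not compared at equal GC content.

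The remaining receptor peaks lay at promoters of other genes, inside the clusters or in the 20 kb beside them. They numbered 127 in WT (20.2%) and 104 in Uhrf1 KO (15.8%) and lay within 2 kb of a TSS of 68 genes, 43 of them protein-coding. Of these 43 genes, 37 had peaks in both lists, 5 in the WT list only and 1 in the KO list only, beside the general 10.1% and 2.52%. The gene with most peaks was Il3ra, a subunit of the interleukin-3 receptor, with 9 WT and 6 KO peaks beside Olfr31. Clcn4-2, which encodes a chloride transporter, had 7 and 6, Zfp219 had 4 and 7, and Patl1, a factor of mRNA decay, had 4 and 6. The ubiquitin ligase gene Trim6 had 4 and 3 peaks, and the phosphatase scaffold gene Ppp2r1a had 3 and 3. Ndufa10 and Syde1 were among those listed in WT only, with 3 peaks each.

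Genes of the signalling pathway behind the receptors were examined at their own promoters. Of 10 genes of odorant signalling, 4 had a peak in WT and 3 in Uhrf1 KO, beside the 68.7% and 63.4% of protein-coding genes outside the receptor families. They were Gnal, the G protein subunit of olfactory receptors, with 5 and 2 peaks, the adenylyl cyclase gene Adcy3 with 3 and 1, Ric8b, a chaperone of that G protein, with 3 and 2, and the chloride channel gene Ano2 with 1 and 0. Omp, Cnga4, Cngb1, Stoml3 and the receptor transport genes Rtp1 and Rtp2 had none in either library. The 3 vomeronasal signalling genes, a number too small to set against those shares, had peaks in both libraries, with 2 and 2 at the channel gene Trpc2, 9 and 5 at Gnao1 and 1 and 3 at Gnai2.

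The 16 regulators of receptor choice and silencing had 59 WT and 46 KO promoter peaks. All 16 had a peak in WT and 15 in Uhrf1 KO, where the demethylase gene Kdm1a had 0, against 1 in WT. Of the enhancer factors, Lhx2 had 4 and 4 peaks, its cofactor Ldb1 had 6 and 5, Emx2 had 3 and 1, and Ebf1, Ebf2, Ebf3 and Ebf4 had 5 and 5, 3 and 1, 1 and 1, and 5 and 4. Of the heterochromatin genes, the H3K9 methyltransferase genes Ehmt1, Ehmt2 and Setdb1 had 2 and 4, 2 and 1, and 3 and 1, Cbx5, which encodes a heterochromatin protein that binds H3K9me3, had 6 and 7, and the lamin B receptor gene Lbr had 3 and 1. Bptf had 5 and 3, and the genes of the feedback response, Eif2ak3 and Atf5, had 2 and 4 and 8 and 4. Many of these genes are expressed in many tissues, and 68.7% of all protein-coding genes outside the receptor families had a promoter peak in WT and 63.4% in Uhrf1 KO.

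By chromosome, 10 chromosomes had 50 or more receptor peaks in both lists together. On 8 of them the KO to WT ratio of receptor peaks was higher than that of all peaks of the chromosome. Over the 10 chromosomes it ranged from 0.795 to 1.24. Chromosome 7, which carries 498 receptor genes, had 177 WT and 195 KO receptor peaks, a ratio of 1.10, against 0.853 for all its peaks. Single chromosomes were not compared within GC classes. Over all autosomes the ratios of receptor and other peaks were close within each GC class, as given above.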

How the data were processed

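ATAC-seq peaks of 1 WT and 1 Uhrf1 KO library were analysed. The authors mapped reads to mm9 and kept fragments shorter than 150 bp. The submitters' processing notes name Bowtie2 2.1.0 and HOMER 4.9.1. The peak threshold is not given in the sources used here. The deposited score was 1 for every peak, so only positions and names were used. Depth is not part of the lists. Gene positions came from GENCODE vM1 and sequence from NCBIM37, the same build. Peaks on unsequenced bases were left out of densities and of GC content.

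Positions were compared with numpy 2.4.6, scipy 1.17.1 and pandas 2.3.3 under Python 3.11.15, sequence was read with pysam 0.24.0, and exact copies of the central 31 bp were counted on both strands with numba 0.67.0. The position routines were tested on simulated data. No test between genotypes was made. Some promoter peak sequences are not reported here.

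The members and lists were chosen with earlier results of these data known. Named were the first 30 receptor genes with a promoter peak by relative number, the 5 clusters with most genes and the 5 with most peaks, the 10 receptor peaks of each list with the lowest relative numbers, all pathway genes and 10 other gene families. Genes of other families at promoters in the receptor territory were named after their values were seen. Alternatives were the distance to receptor genes, the gene types, promoter peaks, name numbers, merged peaks, copy number, chromosome 8, the overlap rule, the TSS distance and the window for GC content.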

Additional observations from a re-analysis of the deposited data

Results flagged for a closer look

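X-linked receptor genes lie outside the autosomal rule, and their peaks are listed because they numbered more than 3, which any stretch with ordinary peaks can pass. Within 20 kb of the 10 X-linked receptor genes the WT list had 8 peaks, with an exact Poisson interval of 3.45 to 15.8. The KO list had 5, with an interval of 1.62 to 11.7. These are 20 peaks per Mb in WT (8.63 to 39.4) and 12.5 in Uhrf1 KO (4.06 to 29.1), against 14.8 and 14.4 in the rest of the X chromosome, which lay within these intervals. Of these, 3 WT and 2 KO peaks had no partner in the other list, beside 32.2% and 24.4% of all autosomal peaks, and 1 WT and 0 KO peaks lay within 2 kb of a TSS of another gene.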

How the results depend on the processing

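Of 94 values under alternative settings, 63 stayed within their counting interval (for GC content, within the quartiles, and for peak numbers, within 1.5-fold) and 31 did not. Receptor genes without flanks had 52 WT and 55 KO peaks, density ratios of 0.285 and 0.354, and 40.4% and 29.1% of peaks near a TSS, against 26.8% and 22.6%. With 5 kb flanks there were 196 and 224 peaks, ratios of 0.303 and 0.407, and 41.5% of KO peaks had no partner, against 24.3% of other autosomal KO peaks. Without peaks near a TSS of another gene the ratios were 0.834 and 0.967, the latter with an interval of 0.888 to 1.05, and 38.2% of KO peaks had no partner, near the 38.0% of other autosomal KO peaks under the same rule. The 50% of peaks with lower name numbers left 272 and 338 receptor peaks, a WT density ratio of 0.415, shares without partner of 22.1% and 38.2% (29.6% and 21.4% for other autosomal peaks), 32.4% of WT peaks near a TSS and a KO to WT ratio of 1.24 (1.06 to 1.46), against 0.850 for other autosomal peaks. Merging neighbouring peaks gave ratios of 0.555 and 0.663, and single-copy peaks gave 0.384 and 0.470, with 31% and 26.1% near a TSS. If 50% of both peaks had to overlap, 38.9% of WT and 41.7% of KO peaks had no partner, against 50.5% and 42.3% of other autosomal peaks. Within 1 kb of a TSS the shares were 22.7% and 17.3%. Fewer peaks or a narrower rule are part of each of these settings, and other causes were not tested. Leaving out chromosome 8 or pseudogenes, asking for 1 shared bp, or taking GC content over the peak as listed moved no value past these limits. No paired analysis was possible because there was 1 library per genotype, and for the same reason no replicate could be left out. Depth per peak is unknown, so a missing peak does not show closed chromatin.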

Other observations

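Other clustered gene families with expression restricted to few tissues were measured in the same way, with 20 kb on either side of each gene. The bitter taste receptor genes (Tas2r, 35 genes, 38.6% GC) had 9.07 WT peaks per Mb (3.92 to 17.9) and 11.3 KO peaks per Mb (5.44 to 20.8). Skint genes, of the skin and thymus (11 genes, 37.2% GC), had 7.53 (4.11 to 12.6) and 12.9 (8.27 to 19.2). Keratin-associated protein genes (Krtap) had 12.0 and 12.8, beta-defensin genes (Defb) 14.4 and 17.3, and Mrgpr receptor genes 14.8 and 17.0 peaks per Mb. The natural killer receptor genes (Klra) had 18.4 in both libraries, and the major urinary protein genes (Mup) had 16.6 and 13.7. Serpina genes had 15.2 and 22.8, kallikrein genes (Klk) 25.2 and 18.9, and the cytochrome genes of the Cyp2 families 30.7 (25.2 to 37.1) and 23.2 (18.5 to 28.9) peaks per Mb. The KO to WT ratio of peak numbers ran from 0.750 for Klk (0.324 to 1.69) to 1.71 for Skint (0.852 to 3.58), and the interval of each of the 10 families included 1.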
